A study of Mus musculus with 6 samples.

Results

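The genes described here are 45 chromatin regulators: Polycomb and trithorax genes, nucleosome remodellers, deacetylase complex genes, coactivator acetyltransferases and related histone enzymes. They were chosen by name, as a list, with earlier results of these data known. All 45 matched a protein-coding gene of the mm10 annotation, out of 21887 protein-coding genes. For each one, ESRRB regions were collected whose summit lay within 50 kb of the gene span. There were 94 such regions among the 13767 of 2iL, 93 among the 10970 of 48 h, and 58 among the 7018 of 96 h. Lists of 3 values below follow the order 2iL, 48 h, 96 h. ESRRB, an orphan nuclear receptor that helps to maintain naive pluripotency, was mapped by ChIP-seq in E14, a mouse embryonic stem cell line derived from a blastocyst. The cells were grown on gelatin in N2B27 with 2iL, that is 3 µM CHIR99021 (a GSK3 inhibitor), 1 µM PD0325901 (a MEK inhibitor) and LIF. They were sampled in 2iL, or at 48 h and 96 h after 2iL had been replaced by plain N2B27. All libraries came from this one line and one mouse monoclonal antibody, with 1 antibody library for each condition. Conditions could therefore not be tested against each other, and the intervals below cover counting error alone. A fold is the signal at a summit over the local background used for its own list, called below the library's own background. Whether that background came from the antibody library or from its input is not stated in the sources used here. A region absent from a list may hold ESRRB below the calling threshold.

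Chromatin regulators set which genes an embryonic stem cell can switch on or off. Polycomb repressive complex 2 (PRC2) methylates lysine 27 of histone H3, and PRC1 ubiquitinates histone H2A and reads that methyl mark. Trithorax-type methyltransferases of the Kmt2 family mark lysine 4 of H3 at promoters and enhancers, and demethylases remove such marks. BAF, CHD and NuRD complexes use ATP to move nucleosomes, and NuRD also removes acetyl groups. In embryonic stem cells these complexes hold lineage genes silent but ready for use, and many of them are needed for an orderly exit from the naive state. Peak files show where ESRRB was found on DNA. They hold no expression values, so nothing below says whether any of these genes was transcribed more or less.

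Some ESRRB regions beside these genes reached a promoter, of the regulator itself or of a neighbour. RefSeq promoter windows (250 bp before to 50 bp after a start site, build GRCm38.p6, the assembly of mm10) were listed for 38 of the 45 genes. A region overlapped such a window of 3 of the 38 in 2iL (7.89%), of 1 at 48 h (2.63%) and of 0 at 96 h, against 6.51%, 4.55% and 3.6% of the 17492 protein-coding genes with a listed window. The 3 genes in 2iL were Mtf2, Cbx7 and Smarcb1, and the 1 at 48 h was Mtf2, at another of its start sites. Only the edges of these regions reached the windows. The summits lay 1007, 639 and 558 bp from the start in 2iL, and 1281 bp at 48 h. Of the 94 regions in 2iL, 11 overlapped the promoter window of a protein-coding gene (11.7%, 95% interval 5.99 to 19.97), against 7.74% of all 2iL regions. At 48 h it was 9 of 93 (9.68%, 4.52 to 17.6) against 6.89%, and at 96 h 6 of 58 (10.3%, 3.89 to 21.2) against 8.42%, so the value over all regions lay inside each interval. The window was that of a neighbour in 8, 8 and 6 of these regions.

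The neighbours were Trap1, Atp5l, Gapdh, Commd3 and Zdhhc18 in every library, Pigv and Cox6b1 in 2iL, Adamtsl5 in 2iL and at 48 h, L3mbtl2 at 48 h and 96 h, and Syt2 at 48 h. Trap1, which encodes a mitochondrial chaperone, starts beside the 3′ end of Crebbp. Atp5l, which encodes a subunit of the ATP synthase, starts under a summit 39.3 kb from Kmt2a. Gapdh, a glycolysis gene, had a summit 34.6 kb from Chd4, and Cox6b1, a cytochrome c oxidase gene, one 36.9 kb from Kmt2b. The promoter window of Commd3, a gene beside Bmi1, was overlapped by the single Bmi1 region of each library. The core of the ESRRB response element, AAGGTCA, was searched on both strands of each window. The full element TCAAGGTCA contains that core, so a full match also counts as a core match. Of all 21263 protein-coding promoter windows, 4.08% held the core and 0.334% the full element. The share with the core was 8.82% of the 1667 windows inside a region of any library and 3.67% of the 19596 windows inside none. Among the 38 regulators with a listed window, the core was present in 1 (2.63%), Kdm6a, which had no region in any library. The full element was present in 0 of the 38. Counted by gene in the same way, 4.73% of the 17492 protein-coding genes with a listed window held the core and 0.377% the full element.

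Below are the promoter windows of Trap1 (chr16:4077761-4078060, minus strand), Atp5l (chr9:44920693-44920992, minus strand) and Commd3 (chr2:18672185-18672484, plus strand). They are shown because each lay under a regulator's region in all 3 libraries and held the core, which is in capitals. The Cbx7 window (chr15:79932597-79932896, minus strand) is shown as a regulator's own promoter under a 2iL region, with no match to the core in it. Sequences are from RefSeq, read 5′ to 3′ on the strand of the gene.
Trap1: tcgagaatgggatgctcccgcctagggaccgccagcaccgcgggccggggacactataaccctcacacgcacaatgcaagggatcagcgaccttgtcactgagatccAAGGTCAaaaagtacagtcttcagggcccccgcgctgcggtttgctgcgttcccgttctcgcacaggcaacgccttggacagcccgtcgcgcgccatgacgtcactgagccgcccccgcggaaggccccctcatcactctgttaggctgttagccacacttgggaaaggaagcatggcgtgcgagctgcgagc
Atp5l: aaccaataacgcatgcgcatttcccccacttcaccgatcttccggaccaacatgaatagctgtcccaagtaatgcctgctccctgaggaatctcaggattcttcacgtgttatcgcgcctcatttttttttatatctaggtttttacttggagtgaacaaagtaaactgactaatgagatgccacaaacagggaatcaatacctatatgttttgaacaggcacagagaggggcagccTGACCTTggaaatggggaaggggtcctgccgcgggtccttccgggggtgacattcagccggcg
Commd3: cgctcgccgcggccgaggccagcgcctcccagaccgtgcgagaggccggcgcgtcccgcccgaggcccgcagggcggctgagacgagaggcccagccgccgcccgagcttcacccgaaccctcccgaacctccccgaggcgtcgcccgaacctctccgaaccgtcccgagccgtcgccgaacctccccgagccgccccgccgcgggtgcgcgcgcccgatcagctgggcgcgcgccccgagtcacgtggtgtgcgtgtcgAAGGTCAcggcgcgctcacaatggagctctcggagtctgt
Cbx7: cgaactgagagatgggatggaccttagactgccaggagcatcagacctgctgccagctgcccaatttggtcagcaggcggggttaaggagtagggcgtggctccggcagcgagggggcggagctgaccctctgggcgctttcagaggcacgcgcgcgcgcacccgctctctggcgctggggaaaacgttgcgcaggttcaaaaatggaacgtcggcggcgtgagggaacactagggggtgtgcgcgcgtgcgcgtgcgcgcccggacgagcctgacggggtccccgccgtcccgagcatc
In the Trap1 window the core lay 19 bp from the summit in 2iL, 16 bp at 48 h and 11 bp at 96 h. For Atp5l, where the core is on the opposite strand to the gene, the distances were 57, 23 and 20 bp, and for Commd3 96, 22 and 76 bp. A match of letters is a description and does not show that ESRRB contacts the motif. Syt2, 13.6 kb from Kdm5b by its summit at 48 h, was the 1 window with the full element under a regulator's region.

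Regulator genes had ESRRB regions nearby more often than protein-coding genes as a whole. Of the 45 genes, 38 had one inside the 50 kb window in 2iL (84.4%, 95% interval 70.5 to 93.5), against 56% of all protein-coding genes. At 48 h it was 35 genes (77.8%, 62.9 to 88.8) against 49.9%, and at 96 h 27 genes (60%, 44.3 to 74.3) against 39.6%. The regulators are long genes, with a median span of 38.96 kb against 17.2 kb, and a long span makes a nearby region likelier. All protein-coding genes weighted to the same mix of span lengths gave 62.1%, 55.6% and 43.7%. Per Mb of sequence searched, 13.5 regions lay around the regulators in 2iL, 13.4 at 48 h and 8.33 at 96 h. Around all protein-coding genes the density was 6.75, 5.38 and 3.47 regions per Mb. The regulators had a mean of 2.09, 2.07 and 1.29 regions per gene, against 1.24, 0.961 and 0.647 over all protein-coding genes. The median per regulator was 1 in each library.

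**Figure D1:**
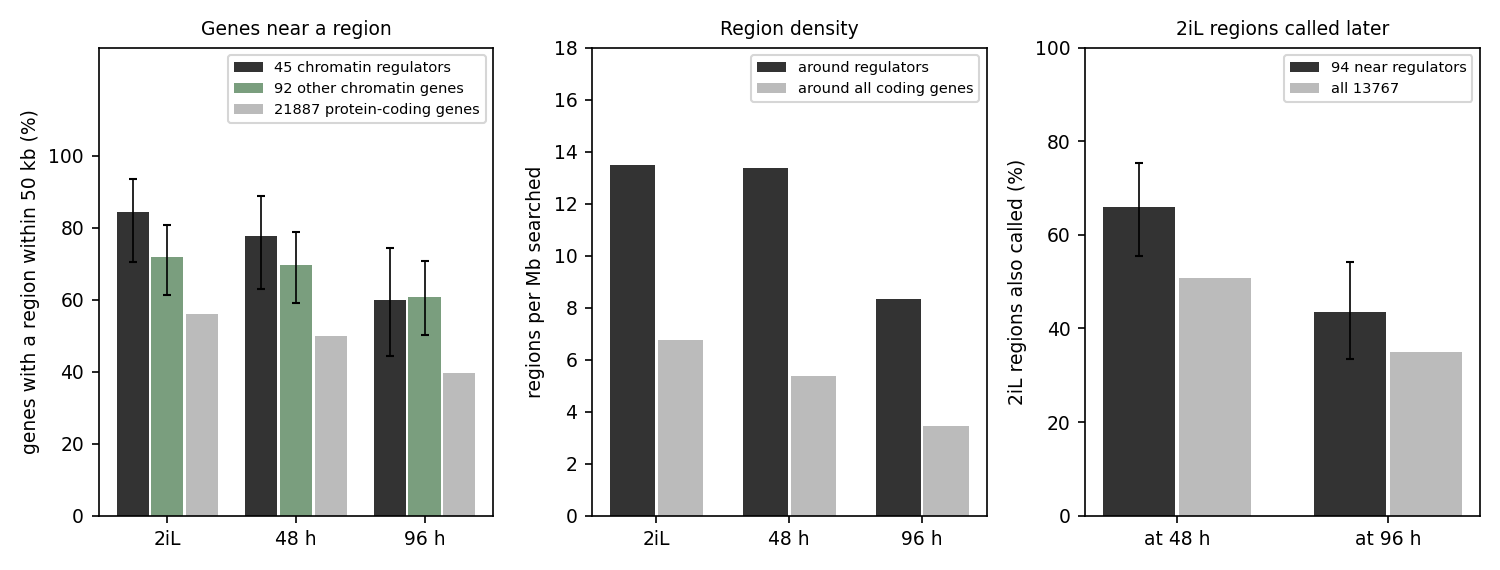
Left, share of genes with an ESRRB region within 50 kb (%), by library, for the 45 regulators, 92 other chromatin genes and all 21887 protein-coding genes. Middle, regions per Mb of sequence searched. Right, share of 2iL regions also called later (%). Error bars are exact 95% binomial intervals for counting error, and the regulators' bars stand above those of all genes in each panel, with 84.4% against 56% in 2iL.

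The presence of regions over time differed from gene to gene. Each of the 3 libraries had a region near 25 of the 45 genes (55.6%), against 33.3% of protein-coding genes. These need not be the same region. Kdm2b, Kdm1a, Kdm5b, Smarca4, Ehmt2 and Ep300 are among the 25, but no region of theirs was itself called in all 3. Of the 92 other chromatin genes described below, 51 had a region in each of the 3 (55.4%), so the share of 55.6% was not particular to the 45. These shares, and those for empty lists, were not matched on span length. All 3 lists were empty around 5 genes (11.1%), against 36% of all. These 5 were the PRC1 chromobox genes Cbx2 and Cbx8, which lie 5.03 kb apart, the demethylase gene Kdm6a, the NuRD gene Mta2 and Ehmt1, which encodes the H3K9 methyltransferase GLP. Among the other genes, 8 had regions in 2iL and at 48 h but not at 96 h, and 4 had them in 2iL alone (Ezh2, Kmt2d, Kdm6b and Dot1l). For Pcgf6 and Kmt2b, among the 8, the regions of 2iL and 48 h did not overlap. Hdac1 had a region in 2iL and at 96 h, Smarcd1 at 48 h and 96 h, and Ezh1 at 48 h alone. Of the 40 genes with a region in any library, 15 (37.5%) had fewer at 48 h than in 2iL and 11 (27.5%) had more, against 46.8% and 22.9% of all genes with a region. At 96 h 25 (62.5%) had fewer than in 2iL and 5 (12.5%) had more, close to the 61.8% and 11.9% of all such genes. Both later libraries are set against the same 2iL library here.

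**Figure D2:**
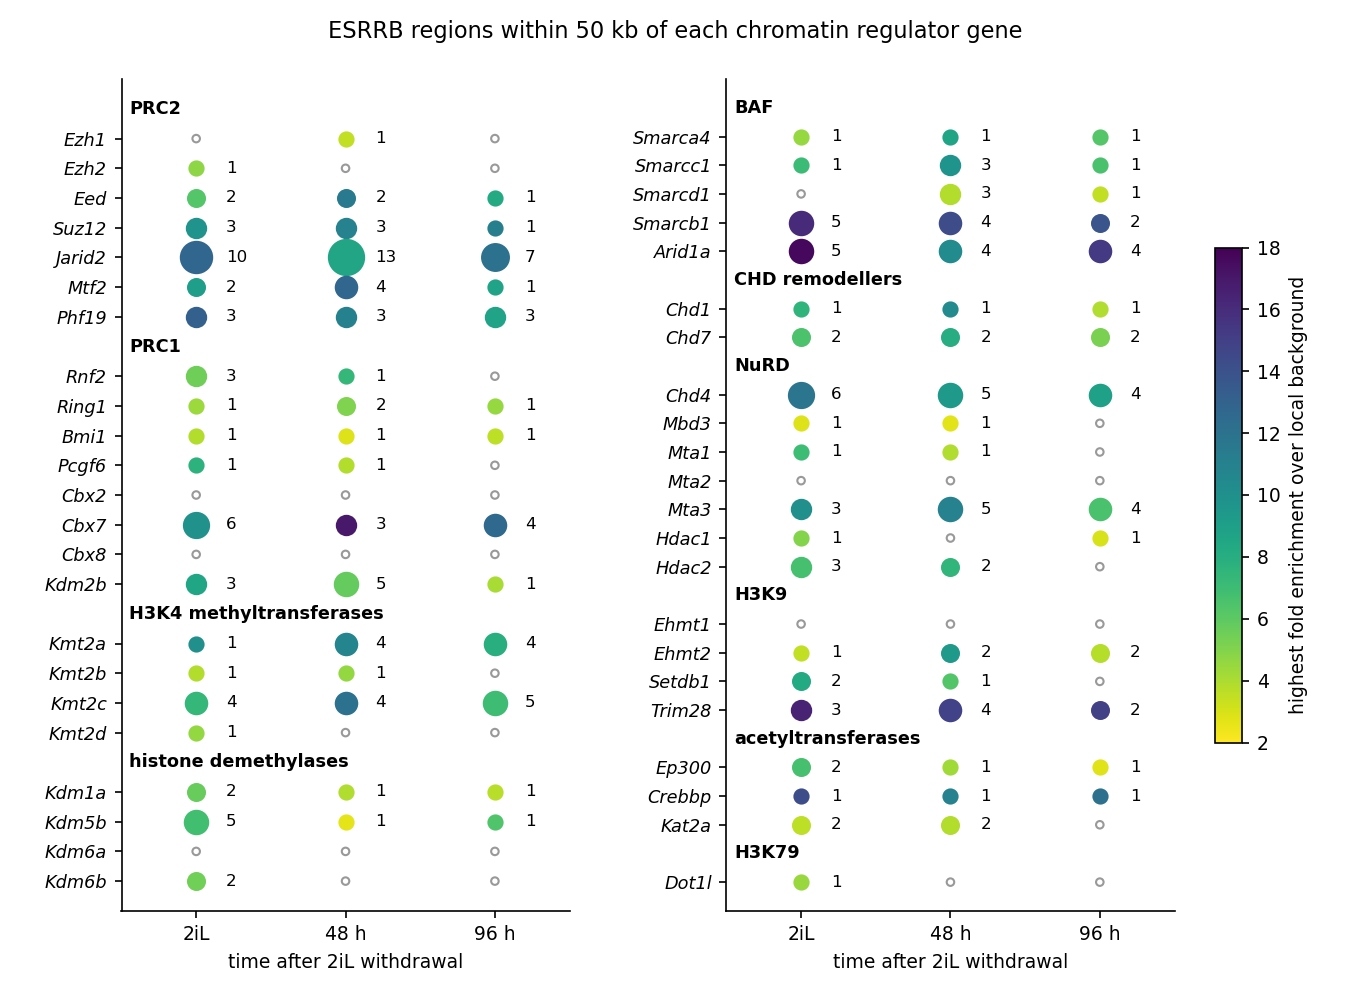
Number of ESRRB regions within 50 kb of each of the 45 genes (the number beside each point), by library. Colour gives the highest fold among them over each library's own background, and an open circle means no region; Jarid2 had the most regions, 10, 13 and 7.

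The 2iL regions beside regulators were called again at 48 h more often than 2iL regions in general. Of the 94, 62 (66.0%, 95% interval 55.5 to 75.4) were called at 48 h, against 50.7% of all 2iL regions. The interval no longer excluded 50.7% for regions within 10 kb (57.9%, 40.8 to 73.7) or for those nearest a regulator (65%, 48.3 to 79.4). At 96 h 41 (43.6%, 33.4 to 54.2) were called, against 35% of all, which lies inside the interval. With the lists cut to equal length by fold it was 73.8% (58.0 to 86.1) against 47.8%, which lies outside. These regions were not unusually strong in 2iL, with a median fold of 5.56 over local background against 5.88. All 2iL regions weighted to the same mix of folds, in 5 equal groups, gave 48.3% at 48 h and 32.8% at 96 h. In the other direction, 65.6% of the 93 regions at 48 h and 70.7% of the 58 at 96 h were also called in 2iL, near the 63.5% and 69.5% of all. The 48 h list has the highest library-wide background, 8.09 reads against 5.05 in 2iL and 5.84 at 96 h. Deeper sequencing lets weaker regions be called, and the part of depth in these shares was not tested.

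By strength, the regulator regions departed from their list at 48 h. Among the strongest 20% of its library by fold were 15 of the 94 regions in 2iL (16.0%, interval 9.22 to 25.0, against 20%), 29 of 93 at 48 h (31.2%, 22.0 to 41.6, against 20%) and 16 of 58 at 96 h (27.6%, 16.7 to 40.9, against 20%). The intervals of 2iL and 96 h contain 20%. All 15 strong 2iL regions were called at both later times, against 1644 of the 2753 strong 2iL regions of the whole list (59.7%). The 39 regulator regions of 2iL called at both later times had a median fold of 7.60, and the 30 called at neither 4.60. Over the whole 2iL list the pattern was much the same, with 7.60 for the 4313 regions called at both and 5.19 for the 6277 called at neither. The highest fold of a regulator region was 17.7, 17.0 and 15.3 in the 3 libraries, well below the 48.2, 42.8 and 60.9 of the strongest regions anywhere. Median reads at a summit were 49.5, 78 and 54.5, with a lowest of 23, 31 and 15.

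When the lists were merged, 130 of 18634 merged regions lay beside regulators. Of these, 37 (28.5%) were called in all 3 libraries, against 22.9% of all merged regions, and 30 (23.1%) in 2iL alone, against 33.7%. Another 22 (16.9%, against 14%) were called in 2iL and at 48 h, and 2 (1.54%, against 2.65%) in 2iL and at 96 h. Among regions not called in 2iL, 22 (16.9%, against 15.5%) were called at 48 h alone, 7 (5.38%, against 5.37%) at 96 h alone and 10 (7.69%, against 5.92%) at both later times. In 2iL 14 of the 94 summits lay within 1 kb of an end of a protein-coding gene (14.9%, against 10.8%). At 48 h it was 13 (14.0%, against 10.4%) and at 96 h 7 (12.1%, against 13.1%).

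**Figure D3:**
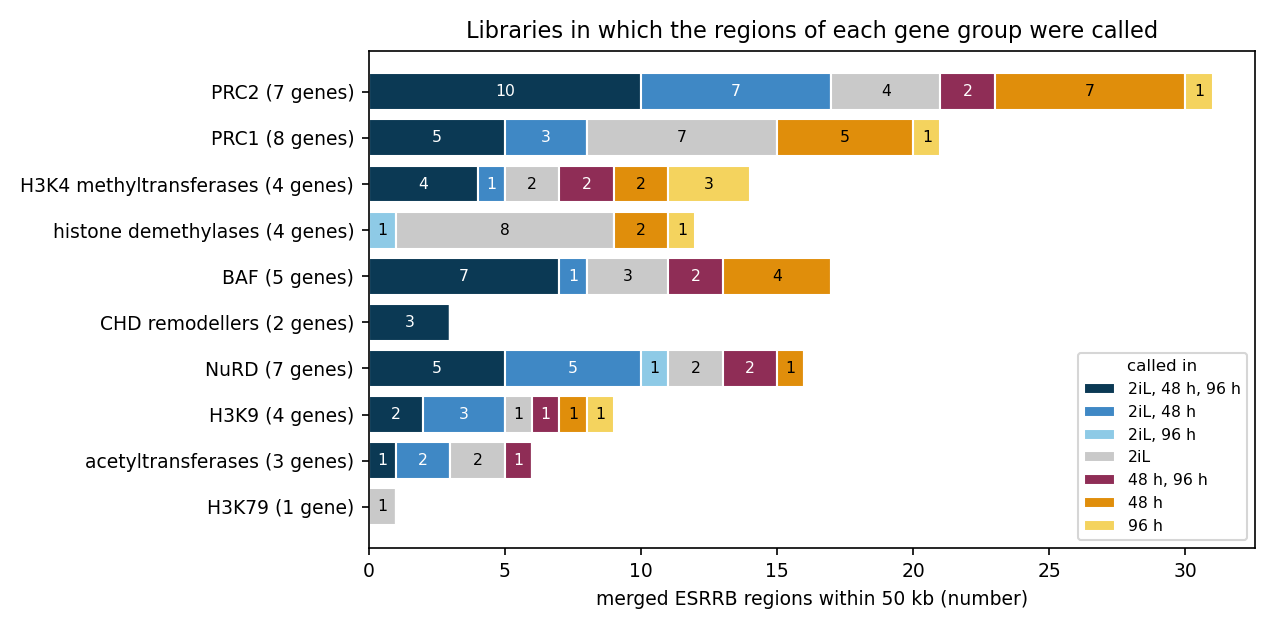
Merged ESRRB regions within 50 kb of the genes of each group (number), split by the libraries in which they were called. PRC2 genes had 31, of which 10 were called in all 3 libraries, and the histone demethylase genes had 12, of which 8 were called in 2iL alone.

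The 7 PRC2 genes had 21, 26 and 13 regions, and 11, 13 and 6 without Jarid2, whose span of 191 kb is the longest among them. Of the 21, those called again numbered 17 at 48 h (81.0%, 58.1 to 94.6) and 10 at 96 h (47.6%, 25.7 to 70.2). All 2iL regions gave 50.7% and 35%, and the interval at 96 h contains the latter. These intervals, like those of the groups below, treat regions as independent, although 10 of the 21 lay around Jarid2. Whether the share at 48 h departs from 50.7% without Jarid2 was not tested. For 16 of the 21 the nearest protein-coding gene was the PRC2 gene itself. Jarid2, which encodes a DNA-binding cofactor that guides PRC2 to its targets, alone had 10, 13 and 7 regions. Its strongest 2iL region (chromosome 13, 44704867 to 44706559) lay 25.1 kb from the gene on the side of its 5′ end, with folds of 12.8, 7.22 and 6.64. The counting intervals of those folds were 11.0 to 14.8, 6.29 to 8.24 and 5.40 to 8.08. A region just inside the gene, 4.27 kb past a start site (44735177 to 44736014), had folds of 9.11, 8.61 and 12.0. A region deep in the gene (44812078 to 44813154) was not called in 2iL and had a fold of 8.56 at 48 h. The interval that overlapped it at 96 h (44812888 to 44813233) had a fold of 2.34, in the weakest 2.38% of that list. It rested on 15 reads, with a −log10 q of 0.967. The 2iL regions at 141.7 and 163.6 kb from the start were called at neither later time.

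**Figure D4:**
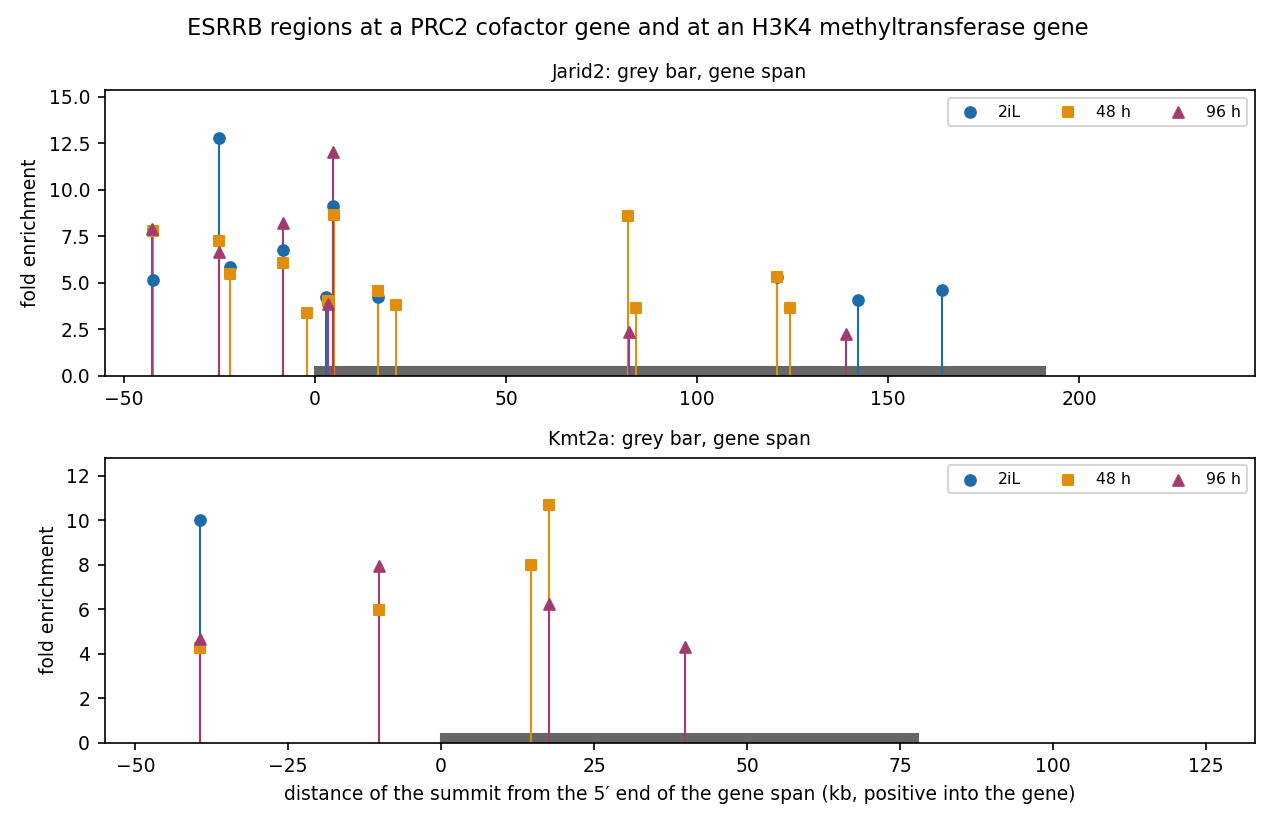
Summits of ESRRB regions by distance from the 5′ end of the gene span (kb) against fold enrichment, for Jarid2 (top) and Kmt2a (bottom), coloured by library. The grey bar is the gene span; Jarid2 had regions before and after its start in every library, while Kmt2a had regions inside the gene at 48 h and 96 h only.

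The core PRC2 genes Eed and Suz12 each had 1 region that was called throughout. Inside Eed, whose product binds methylated lysine 27, a region (chromosome 7, 89975306 to 89976325) had folds of 6.28 (interval 5.13 to 7.61), 11.5 (9.76 to 13.5) and 8.27 (6.51 to 10.4). Suz12 encodes a scaffold subunit, and its strongest region (chromosome 11, 79986376 to 79987591), 5.94 kb from the gene, had folds of 9.78, 11.0 and 11.2. The other 2 Suz12 regions of 2iL were called at 48 h and not at 96 h. The catalytic subunit genes had little nearby. Ezh2 had 1 region in 2iL, of fold 4.70, which lay inside the neighbour Cul1, and Ezh1 had 1 at 48 h, of fold 3.47, 4.69 kb from the gene.

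The Polycomb-like genes Mtf2 and Phf19, whose products bring PRC2 to CpG-rich DNA, also had a strong region each. The Mtf2 region, inside the gene (chromosome 5, 108076198 to 108078008), had folds of 9.12, 12.7 and 8.69, and its summit lay 1.01 kb before an inner start site. Of the 2 Mtf2 regions that were called at 48 h alone, 1 lay 1.27 kb from the gene, with a fold of 4.48. Phf19 had 3 regions in each library. The strongest (chromosome 2, 34922089 to 34923239), 8.57 kb from the gene, had folds of 13.2, 11.0 and 8.69.

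The 15, 13 and 7 regions of PRC1 genes were mostly those of Cbx7, with 6, 3 and 4, and Kdm2b, with 3, 5 and 1. CBX7 is the main reader of methylated lysine 27 in embryonic stem cells. A region whose summit lay 1.24 kb before the nearest listed Cbx7 start (chromosome 15, 79932897 to 79935581) had folds of 9.96 (interval 8.13 to 12.1), 17.0 (15.0 to 19.1) and 9.59 (8.09 to 11.3). It begins just past the window printed above, on its upstream side. At 48 h it stood in the top 1.19% of its list, the highest fold beside any regulator there. A weaker region 0.639 kb past the start had folds of 3.86, 3.70 and 4.34. A region 10.7 kb from Cbx7, inside the neighbour Apobec3, had folds of 8.45, 7.55 and 12.6. The other 3 regions of Cbx7 in 2iL, with folds of 4.65 to 6.20, were called at neither later time.

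Kdm2b, which encodes a CpG-binding protein that brings PRC1 to DNA, had 1 region that was called in 2iL alone and 3 at 48 h alone. Its strongest 2iL region, inside the gene (chromosome 5, 122917984 to 122918846), was the one limited to 2iL (fold 8.52). The other 2 of 2iL, also inside the gene, had folds of 3.06 and 3.11 at 48 h, against 6.97 and 4.66 in 2iL. Its 1 region at 96 h (fold 4.08) was called there alone. The ubiquitin ligase genes Rnf2 and Ring1 had 3, 1 and 0 regions and 1, 2 and 1. The strongest Rnf2 region, inside the neighbour Trmt1l, had a fold of 7.37 at 48 h, against 5.52 in 2iL, and Ring1 had a region of fold 4.39, 4.48 and 4.56 that lay nearest H2-K1. At 48 h alone, Ring1 had a region of fold 5.08 inside Rxrb, a retinoid receptor gene. Bmi1, a partner of the ligases, had the Commd3 region, with folds of 3.86, 2.82 and 3.58. Pcgf6, their partner in variant complexes, had 1 region at 48 h (fold 3.86) and a different one in 2iL (7.74).

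H3K4 methyltransferase genes had 9 regions at each later time, against 7 in 2iL. None of the 7 lay inside one of the 4 genes. Inside Kmt2a or Kmt2c lay 2 of 9 at 48 h and 3 of 9 at 96 h. Over all regulators, 23 of 94, 22 of 93 and 16 of 58 regions lay inside a regulator gene. The share of all regions inside a gene was not counted, and the difference between these few regions was not tested. Kmt2a, which encodes MLL, had 1 region in 2iL and 4 at each later time. The one of 2iL is the Atp5l promoter region (chromosome 9, 44920043 to 44921336), with folds of 10.0, 4.27 and 4.66. Inside Kmt2a a region (44863295 to 44864242) had a fold of 10.7 at 48 h (interval 8.89 to 12.7) and 6.25 at 96 h (4.62 to 8.26), and none was called there in 2iL. A region 10.1 kb from the gene on the side of its start (44891215 to 44891873) had folds of 5.96 and 7.94 at the same times. A further region inside the gene was called at 48 h alone (fold 7.99), and another at 96 h alone (4.32).

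Kmt2c and Kmt2d encode the enhancer-type enzymes, and they differed in number. Kmt2c had 4, 4 and 5 regions, and 3 of its 4 in 2iL were called at both later times. They lay on the side of its start, up to 38.2 kb from the gene, with Cct8l1 nearer to them. A region 29.3 kb from Kmt2c (chromosome 5, 25527648 to 25528454 in 2iL) had folds of 4.55, 11.9 (interval 10.2 to 13.9) and 6.99. Kmt2d had 1 region, in 2iL alone (fold 4.59), inside the neighbour Ddn. Kmt2b, a promoter-type methyltransferase gene, had a region inside Cox6b1, 33.6 kb away, at 48 h (4.60) and the Cox6b1 promoter region in 2iL (3.86).

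Few later regions were called beside the 4 histone demethylase genes. The group had 9, 2 and 2 regions, and 0 of the 9 were called at 48 h (95% interval up to 33.6%) and 1 at 96 h (11.1%, 0.281 to 48.2). Over all 2iL regions those shares were 50.7% and 35%. The 9 regions were weak, with folds of 3.23 to 6.85. Kdm5b, which encodes an eraser of H3K4 trimethylation, had 5 of them, spread from 33.3 kb before its start to 29.7 kb past it. None was called later, and the single regions of 48 h (fold 2.68) and 96 h (6.43) lay elsewhere. Kdm1a, which encodes LSD1, had 2 regions in 2iL. Of these, 1 lay 3.48 kb from the gene on the side of its start (chromosome 4, 136605203 to 136606598) and had a fold of 3.72 at 96 h, against 5.71 in 2iL, with none called at 48 h. Kdm6b, an eraser of H3K27 methylation, had 2 regions in 2iL (folds of 5.45 and 3.78) and none later, and its relative Kdm6a had none at all. The group is small, and its difference from others in later calls was not tested. Outside the 4, the strongest 2iL regions beside the demethylase genes Kdm3a, Kdm3b and Kdm4a were called at both later times. Their folds were 5.90, 7.14 and 3.84 for Kdm3a, 19.3, 12.3 and 12.8 for Kdm3b, and 5.96, 3.78 and 3.62 for Kdm4a. That of Kdm4b (fold 4.80) was called at neither later time. Kdm1b, Kdm2a, Kdm4c, Kdm5a and Kdm5c, of the same families, had no region in any library.

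BAF genes carried some of the strongest regions of the set. They had 12, 15 and 9 regions, and of the 12 in 2iL 9 were found again at 48 h (75%, 42.8 to 94.5) and 8 at 96 h (66.7%, 34.9 to 90.1). Both intervals contain the share over all 2iL regions, 50.7% at 48 h and 35% at 96 h. Arid1a encodes the large DNA-binding subunit of BAF. A region 12.6 kb from it on the side of its start (chromosome 4, 133768814 to 133770139) had the highest fold of the set in 2iL and at 96 h. Its folds were 17.7 (interval 14.7 to 21.1), 10.4 (8.78 to 12.1) and 15.3 (12.6 to 18.6). On the other side of Arid1a, 3 more regions were called in every library, with folds of 5.24 to 8.65. A weak region at the start of the neighbour Pigv (3.79) was called in 2iL alone.

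Smarcb1, which encodes a core BAF subunit, had 5, 4 and 2 regions. Of these, 2 neighbouring regions, with summits 14.4 and 16.5 kb before its start in 2iL, lay inside Chchd10 and Gm867. The one inside Chchd10, a gene for a mitochondrial protein (chromosome 10, 75935531 to 75937096), had folds of 16.1, 14.3 and 13.9. The one inside Gm867 (75937221 to 75938641) had a fold of 12.9 at 48 h, against 10.1 in 2iL, and at 96 h both fell within a single interval. The region that reached the Smarcb1 promoter had a fold of 3.17, among the weakest of 2iL, and was called there alone. Smarca4 encodes BRG1, the ATPase. It had 1 region in each library, but the 2iL one (fold 4.53, inside the gene) was called at neither later time. Smarcd1, an accessory BAF subunit gene, had no region in 2iL and 3 weak ones at 48 h (2.96 to 3.84), of which 1 was also called at 96 h. Beside Smarcc1, another core subunit gene, a region inside Cspg5 had folds of 7.10, 9.70 and 6.57.

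Among CHD remodellers outside NuRD, each of the 3 regions of 2iL was called again at 48 h and 96 h. With so few regions the interval is 29.2 to 100, which contains the 50.7% and 35% of all 2iL regions. Chd1, whose product acts at active genes, had 1 region 26.9 kb away (chromosome 17, 15677685 to 15678387), with folds of 7.60, 10.4 and 3.91. Chd7, whose product acts at enhancers, had 1 inside the gene, with folds of 6.54, 8.02 and 5.19, and another 42.9 kb away, with folds of 6.12, 5.18 and 4.13.

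NuRD genes had 15, 14 and 9 regions, and of the 15 in 2iL 12 recurred at 48 h (80%, 51.9 to 95.7) and 7 at 96 h (46.7%, 21.3 to 73.4). The values over all 2iL regions were 50.7% and 35%, and the interval at 96 h contains the latter. Chd4, the ATPase gene, had 6, 5 and 4, each of them nearer to another gene. The Gapdh region (chromosome 6, 125164675 to 125166886) had folds of 9.14, 8.66 and 8.84, and one inside Ncapd2 (125171454 to 125173103), a condensin gene, had folds of 11.8, 9.38 and 6.40. Mta3 had 3, 5 and 4 regions, and its 3 of 2iL were called in every library. The one inside Mta3 (chromosome 17, 83723028 to 83723513) had folds of 6.71, 10.7 and 6.44, and the strongest of 2iL, 41.3 kb away, had folds of 10.0, 7.24 and 6.59. The related gene Mta1 had a region inside it at 48 h (3.91) and in 2iL (7.06), and Mta2 had none. Hdac2, a deacetylase gene, had 3, 2 and 0 regions, with a highest fold of 7.55 at 48 h, against 6.70 in 2iL. Its paralog Hdac1 had 1 region at 96 h (2.95) and in 2iL (4.97). Mbd3, which encodes a subunit that holds NuRD together, had the region on the promoter of Adamtsl5, which had a fold of 2.69 at 48 h, against 2.87 in 2iL.

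Of the genes for H3K9 methylation, Trim28 had the strongest region. TRIM28 is a corepressor that brings SETDB1 to retroelements. A region 9.60 kb from the gene (chromosome 7, 13014000 to 13015102), with Zbtb45 nearer, had folds of 16.5, 14.9 and 14.9, in the top 2.07%, 2.09% and 2.64% of the lists. A second region 7.53 kb away had folds of 5.95, 3.11 and 3.62. Setdb1, the methyltransferase gene of that pair, had 2 regions in 2iL. The stronger, inside the gene (chromosome 3, 95343163 to 95344834, fold 8.26), was seen in 2iL alone, and the weaker had a fold of 6.33 at 48 h, against 4.14 in 2iL. Ehmt2, which encodes G9a, had 1, 2 and 2 regions. A region 18.9 kb from it, inside C2, was not called in 2iL and had folds of 9.32 at 48 h and 3.75 at 96 h.

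Of the acetyltransferase genes, Crebbp had a single region, that of the Trap1 promoter (chromosome 16, 4077380 to 4078482), 3.40 kb from the 3′ end of Crebbp. Its folds were 14.3 (interval 12.0 to 16.8), 10.9 (9.72 to 12.2) and 12.1 (10.8 to 13.6). With 310 reads at 48 h and 284 at 96 h, it had the most reads of any summit beside a regulator at those times. Ep300, the gene for the related p300, had 2 regions in 2iL (6.71 and 3.60), neither of them called later. A region near the start of its neighbour L3mbtl2, a PRC1-related gene, had folds of 4.27 at 48 h and 2.79 at 96 h. Kat2a, which encodes GCN5, had 2 weak regions inside Zfp385c, with folds of 3.72 and 3.86 at 48 h, against 3.32 and 3.60 in 2iL, and neither was called at 96 h. Dot1l, the H3K79 methyltransferase gene, had 1 region 2.30 kb away in 2iL alone (4.48).

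**Figure D5:**
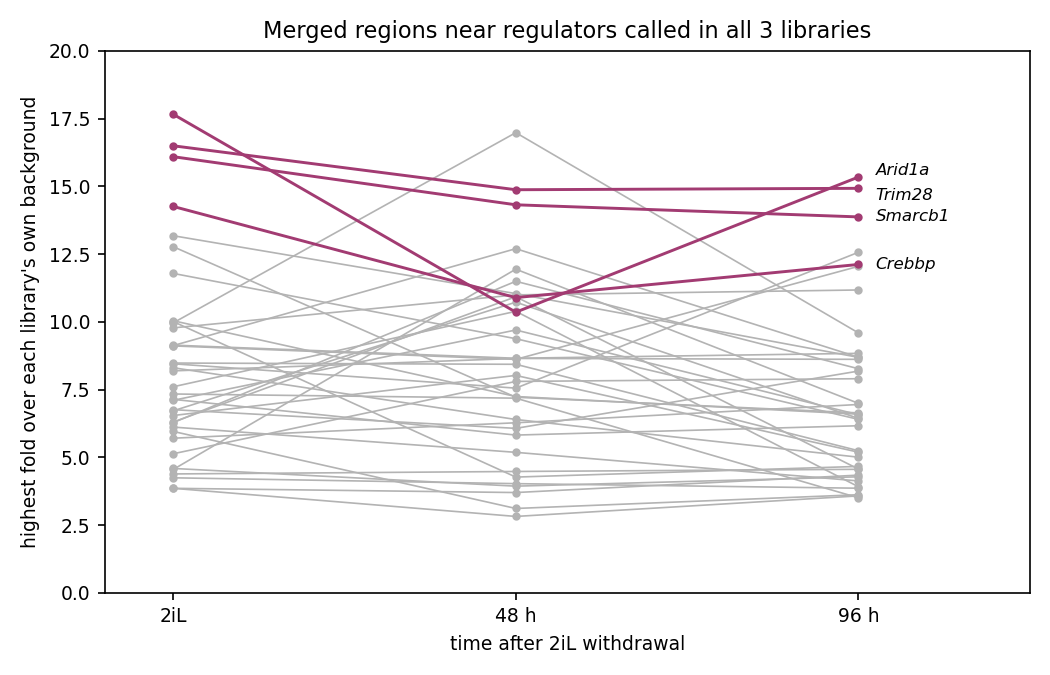
Highest fold of each of the 37 merged regions called in all 3 libraries, by library, each over that library's own background. The 4 regions at a fold of 10 or more throughout, in colour, lay beside Arid1a, Trim28, Smarcb1 and Crebbp; the other 33 are grey.

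The 50 kb limit left out some strong regions. The farthest summit counted lay 48683 bp from Ep300 (fold 6.71 in 2iL), and the nearest one not counted 50163 bp from Smarca4 (4.01 at 48 h). A region 51217 bp from Mta3 in 2iL had folds of 22.3, 10.4 and 7.97, and one 52553 bp from Jarid2 had folds of 13.3, 13.5 and 19.8.

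A further 92 chromatin genes of the same complexes and families were counted in the same way. Of these, 66 had a region within the window in 2iL (71.7%, 61.4 to 80.6), 64 at 48 h (69.6%, 59.1 to 78.7) and 56 at 96 h (60.9%, 50.1 to 70.9). In 22 of them the strongest 2iL region was among the strongest 20% of that list and was called at both later times. How often this holds over all protein-coding genes was not counted, so the 22 do not set chromatin genes apart. The highest of these lay beside Kat6b, an acetyltransferase gene, with folds of 26.4, 26.8 and 20.7. Inside the remodeller gene Ino80 folds were 20.3, 20.7 and 14.7, and inside Chd9 19.0, 12.5 and 14.0. Inside the demethylase gene Kdm3b they were 19.3, 12.3 and 12.8. Beside Rbbp5, a subunit gene of H3K4 methyltransferase complexes, folds were 18.1, 13.5 and 7.31, and beside Phc3, a PRC1 gene, 17.0, 18.4 and 8.56. Arid2 (15.8, 11.0 and 17.0) and Rbbp7 (13.1, 12.2 and 5.92) followed, and the PRC2-associated gene Epop and the PRC1 gene Pcgf2 shared a region of folds 14.4, 11.5 and 13.3. The 3 lists held no region near 19 of the 92, Brd7, Brd9, Chd6, Chd8 and Cxxc1 among them.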

How the data were processed

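ESRRB ChIP-seq was measured in 6 libraries, 3 with antibody and 3 input, and the 3 deposited peak lists, 1 for each antibody library, were used. Input libraries were not used here. Per the submitters' processing notes, bcl2fastq 2.20.0.422, BWA, SAMtools, Picard and MACS2 were used with build mm10. The sources used here give neither the role of each tool nor the calling threshold. The deposited fold enrichment is the authors' ratio at a summit over local background, and p and q are deposited as −log10 values. The authors' score, which is capped at 1000, was not used.

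Intervals listed more than once were counted once, as a region, with the summit of highest fold. Fold is that of each peak in its own list and was ranked within lists. Fold and p together gave whole reads at 100% of summits (within 0.05 of a step, with a pseudocount of 1). Their exact Poisson interval, with local background held fixed, gave the interval of a fold. The commonest local background, here called library-wide, differed between lists, and total depth is unknown. A summit was near a gene within 50 kb of its RefSeq span. Regions overlapping by at least 1 bp counted as called in both. Shares carry exact Clopper-Pearson 95% intervals. Overlaps were tested on simulated data and against bedtools 2.31.1. Python 3.11.15, pandas 2.3.3 and scipy 1.17.1 were used.

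The members, groups and lists were chosen with earlier results of these data known. A result that needs a withheld item is not reported here. All 45 genes are named. Coordinates are given for some of the regions in the strongest 20% of a list, at gene ends or strongest in a group. Other chromatin genes are named where their strongest 2iL region was in the strongest 20% and called at both later times (the 10 of highest fold), or where they had no region (the first 5 by alphabet). Beyond that rule, the demethylase genes among the 92 are named.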

Additional observations from a re-analysis of the deposited data

How the results depend on the processing

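With 1 library per condition, replicate spread is unknown, and a region that was not called may hold ESRRB below the calling threshold. No paired analysis was possible because each condition has 1 library. The counts of genes and regions depended on the window. Within 10 kb, 18 genes had a region at 48 h and 21 in 2iL, with 38, 38 and 27 regions over the 3 libraries. Within 100 kb there were 159, 146 and 92 regions. Counting only regions whose nearest protein-coding gene was a regulator left 21, 16 and 14 genes with 40, 44 and 27 regions. In those 3 settings, in that order, 46.7%, 97.8% and 46.7% of the regulators were near a 2iL region, against 31.7%, 69.8% and 29.9% of all protein-coding genes. At 48 h the shares were 40%, 93.3% and 35.6%, against 27.1%, 64.7% and 25.7%. At 96 h they were 40%, 82.2% and 31.1%, against 20.1%, 54.0% and 18.9%. Counting each summit gave 178, 160 and 101 summits with median folds of 3.87, 3.68 and 3.72. With each list shortened to the 7018 strongest regions by fold, 24, 25 and 27 genes had a region, with 42, 60 and 58 regions. Over all protein-coding genes, 37.7%, 36.9% and 39.6% had a region in these lists. The fall in both counts from 2iL to 96 h was thus not seen with lists of equal length. Median folds in these lists were 7.31 at 48 h and 7.96 in 2iL. Of the 2iL regions, 76.2% and 73.8% were called at 48 h and 96 h, against 54.8% and 47.8% of all. The share called at 48 h was 57.9% to 66.9% and that at 96 h 34.0% to 44.7% in the other settings, which included an overlap of 50% of both intervals, a q of 1e-05 and, chosen after seeing the data, leaving out Jarid2.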
